A study of Mus musculus with 6 samples.

Results

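The cytosolic ribosomal protein genes were examined in the ventricles of mice whose cardiomyocytes carried an inducible, oxygen-stable form of HIF1α. Members were chosen by name as the genes whose symbol starts with Rpl or Rps and a digit, together with Rplp0, Rplp1, Rplp2 and Rpsa, without the Rps6k kinases, Rps19bp1 and rows named as pseudogenes. By this rule 85 of 23792 gene rows were members, and 64 of the 85 had at least 1 FPKM (fragments per kilobase of transcript, scaled to the mapped fragments, so that levels are per length) in both groups. Standard proteins of the ribosome made up 77 of the members, 43 of them in the large subunit, 31 in the small subunit and 3 in the stalk, and the other 8 were paralogs.

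All animals were male tTA/HIF1α-PPN double transgenic mice on a C57BL/6-FVB background, 6 to 8 weeks old. The tetracycline transactivator (tTA) is driven by the αMHC promoter, so the transgene is switched on in cardiomyocytes, and HIF-PPN is a HIF1α with 3 amino acid substitutions. Both groups carried both transgenes. Control mice (n = 3) stayed on doxycycline, which keeps the transgene off, and HIF-PPN mice (n = 3) were taken off doxycycline for 3 days. Differences due to the transgene and to the withdrawal of doxycycline itself therefore cannot be told apart. Poly A RNA of the heart ventricles was sequenced in paired ends. The deposited table holds 1 FPKM value per group, in which the 3 mice had already been merged, so no value has a replicate error, the depth is unknown and no difference could be tested. In bulk tissue, fewer cells of a type and less RNA per cell cannot be told apart.

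A ribosome is built from ribosomal RNA and, for most of its proteins, a single copy of each. Proteins of the small subunit hold and decode the mRNA, those of the large subunit line the peptidyl transferase region and the exit tunnel, and the acidic stalk proteins recruit elongation factors. Most mammalian ribosomal protein mRNAs begin with a C and a run of pyrimidines, the terminal oligopyrimidine (TOP) motif, through which mTORC1 controls their translation. The genes are also known for their many processed pseudogenes, intronless copies scattered through the genome. A few have paralogs with tissue-restricted expression, and Rpl3l, expressed in heart and skeletal muscle in place of Rpl3, is the best known of these in the ventricle.

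Copies of the coding sequence bear on how reads of these genes can be placed, so stretches of 50 bases are shown for a few members, all in lower case, each chosen as the stretch with the most exact copies outside the gene itself. Coordinates of these coding stretches are those of the NCBIM37 build. That of Rpl8, a gene of high level, had 1 copy elsewhere, and the others had between 3 and 44 copies.
Rpl8, chr15:76736568-76736617, plus strand, 1 copy elsewhere: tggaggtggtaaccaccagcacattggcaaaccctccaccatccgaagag
Rpl38, chr11:114533065-114533114, plus strand, 3 copies elsewhere: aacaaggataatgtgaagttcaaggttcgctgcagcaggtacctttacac
Rpl24, chr16:55969679-55969728, plus strand, 4 copies elsewhere: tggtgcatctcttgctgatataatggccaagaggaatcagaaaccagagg
Rpl3, chr15:79910908-79910957, minus strand, 18 copies elsewhere: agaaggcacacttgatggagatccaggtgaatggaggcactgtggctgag
Rps12, chr10:23505035-23505084, minus strand, 21 copies elsewhere: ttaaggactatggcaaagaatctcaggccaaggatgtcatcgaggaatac
Rpl7a, chr2:26767899-26767948, plus strand, 44 copies elsewhere: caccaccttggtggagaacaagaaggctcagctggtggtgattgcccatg

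Levels of the members spanned a wide range, although each protein is needed by the ribosome. Values are given with control first and HIF-PPN second from here on. Among the most abundant genes was Rpl41, which encodes the smallest ribosomal protein, at 392 and 399 FPKM, and Rps9 was at 389 and 386 FPKM. Rpl8, a large subunit protein at the peptidyl transferase region, was at 379 and 356 FPKM, and the stalk protein gene Rplp1 at 398 and 317 FPKM. Of these genes, Rplp1 had the greatest difference between groups. Rps21 was at 350 and 347 FPKM and Rpl4, whose protein lines the exit tunnel, at 264 and 253 FPKM. The 10 most abundant members held 57.5% of the summed FPKM of all members in control and 58.3% in HIF-PPN hearts.

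At the other end, 21 members were outside the filter, 17 of them under 1 FPKM in both groups. Rpl24 and Rpl28 of the large subunit, Rps12 of the small subunit and the paralog Rpl10l were listed at 0 in both groups. Rpl10, a late-joining protein of the large subunit, was at 0.168 and 0.151 FPKM, and Rpl11, known in the p53 response for its binding to Mdm2, was at 0.143 and 0.115 FPKM. Rps16 was at 0.0951 and 0.596 FPKM, Rpl9 at 0.808 and 0.262 FPKM, and Rpl36a at 0.756 and 0.158 FPKM. Gapdh at 0.481 and 0.488 FPKM and Ppia at 0.237 and 0.242 FPKM, genes used by all cells and named after their values were seen, were also under 1 FPKM, so zeros and near-zero values of the members are given only as listed.

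The level of a member ran with how much of its coding sequence is repeated elsewhere in the genome. The measure was the share of a gene's coding 50-mers with an exact copy outside the gene, computed for the 84 members with an annotated coding sequence (all but Rpl41). Of the 28 members whose every 50-mer had a copy, the median control level was 0.901 FPKM, 12 reached 1 FPKM in both groups and 0 reached 100 FPKM. Of the 16 members with under 50% of their 50-mers repeated, the median control level was 208 FPKM, 14 reached 1 FPKM in both groups and 11 reached 100 FPKM. Across the 84 genes Spearman's rho between this share and FPKM was -0.66 in control and -0.69 in HIF-PPN hearts, over genes of the same merged libraries. With 75-mers in place of 50-mers the control value was -0.69, and against coding length it was 0.12. Rpl3l and Rpl39l had no repeated 50-mer in the coding sequence used, and of these Rpl39l was low, at 0.117 and 0.348 FPKM. At least 90% of the 50-mers were repeated in 48.8% of members and in 1.57% of all 19964 genes with a coding sequence. Gapdh and Ppia, named after their values were seen, were each at 100% on this measure. Among genes other than members, 31.5% of those at 100% and 56.6% of those under 50% reached 1 FPKM in both groups. For members these shares were 42.9% and 87.5%. Other genes with 90% to under 100% repeated reached up to 786 FPKM in control. The part of repeated sequence in these levels was not tested, and how the authors treated reads with several equally good positions is not given in the sources used here.

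**Figure D1:**
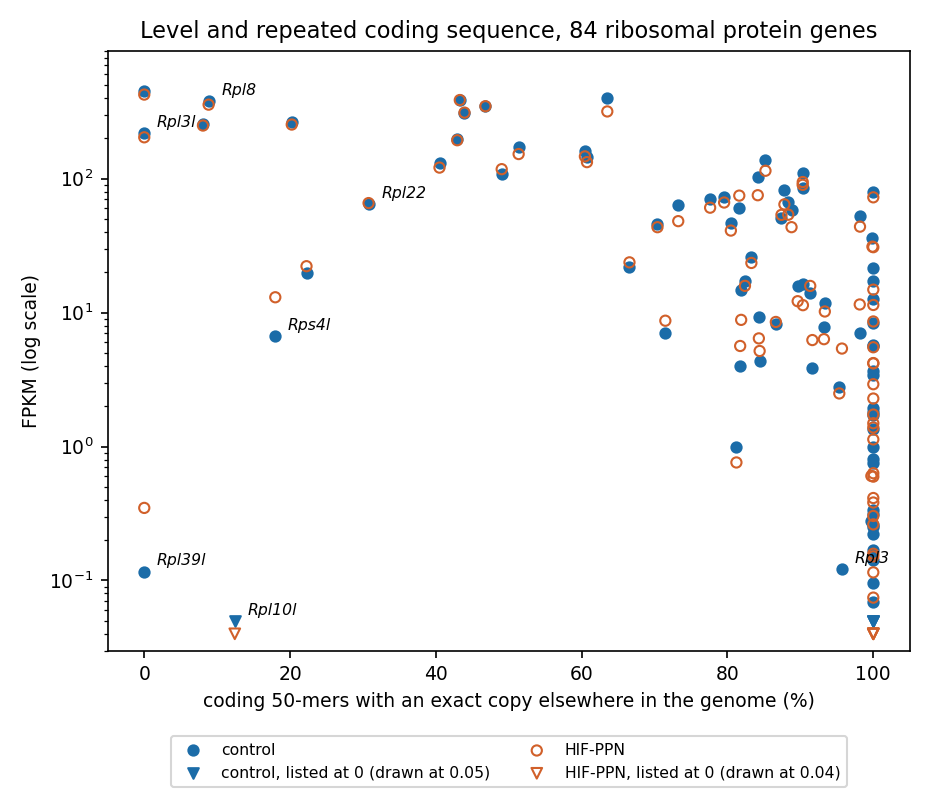
FPKM (log scale) of the 84 members with a coding sequence, against the percentage of their coding 50-mers that have an exact copy elsewhere in the genome, with filled points for control, open points for HIF-PPN and triangles for genes listed at 0. The 28 genes at 100% lie between 0 and 79.0 FPKM in control, and the 11 genes under 50% that reached 100 FPKM in both groups lie to the upper left.

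Between the groups, most ribosomal protein genes had similar levels. The median log2 fold change of HIF-PPN over control for the 64 members in the filter was -0.10 (range -0.95 to 1.12), beside 0.01 for all 11509 genes that passed the same filter. The median of the members kept its sign under each alternative tried. A rescaling of both groups to the same sum shifted every gene by 0.06 and gave -0.04. The pseudocounts keep the direction of every gene, and centring on the median of all genes lowers each value, so neither could turn the sign. A lower value in HIF-PPN hearts was found in 42 of 64 members (65.6%), against 48.1% of all genes, and a higher value in 22, against 51.9%. With the groups rescaled to the same sum, 35 of 64 members had a lower value, and 11 were lower and 9 higher by 1.2-fold. The shares of all genes were not counted on that scale, on which every gene is shifted alike. Centred on the median of all genes, the median of the members was -0.11. Highly expressed genes as a whole leaned to lower values, since 65% of the 622 genes with a mean of at least 100 FPKM had one, with a median of -0.08. At matched levels, lower values made up 83.3% of members and 65% of genes with a mean of at least 100 FPKM, 66.7% and 47.9% between 50 and 100 FPKM, 75% and 45.3% between 10 and 50 FPKM, and 38.9% and 48.5% under 10 FPKM.

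At a difference of 1.2-fold, 14 members were lower (21.9%, against 14.6% of all genes) and 8 were higher (12.5%, against 17.2% of all genes). At 1.5-fold, 2 members were lower, Rpl38 and Rpl22l1, where 3.11% of all genes were, and 4 were higher, Rps29, Rps4l, Rpl36 and Rpl35, where 3.94% of all genes were. At 2-fold, 0 members were lower (0.6% of all genes) and 1, Rps29, was higher (1.01% of all genes). Summed over all members, FPKM was 5912 in control and 5562 in HIF-PPN hearts, a ratio of 0.941. As a share of the summed FPKM of all single-gene rows this was 1.25% and 1.23%.

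**Figure D2:**
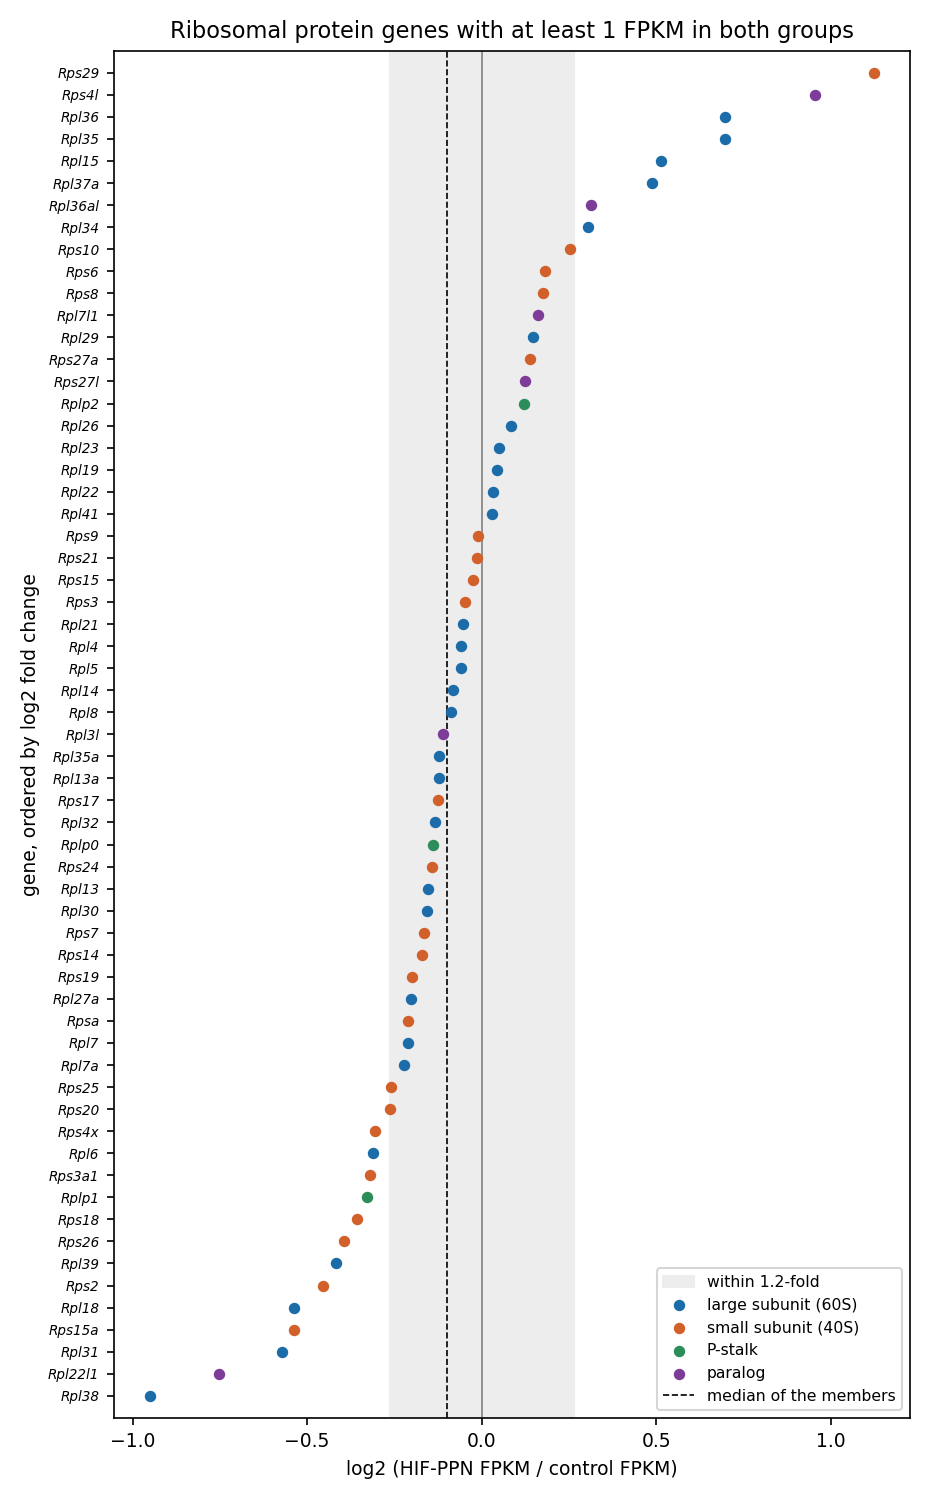
Log2 fold change (HIF-PPN FPKM over control FPKM) of 61 members with at least 1 FPKM in both groups, ordered by value and coloured by subunit, with the range within 1.2-fold shaded and the median of all 64 such members dashed. Rpl38 is lowest at -0.95, Rps29 is highest at 1.12, and the median is -0.10.

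The spread of the differences narrowed with the level. Among the 18 members with a mean of at least 100 FPKM the log2 fold changes lay between -0.33 and 0.12 with an SD over genes of 0.12, against an SD of 0.32 over all genes of that level. Of these 18 genes 15 had a lower value, and their median of -0.08 was that of all genes at that level. By 1.2-fold 2 of the 18 were lower (Rplp1 and Rps4x), where 20.7% of genes of that level were, and 0 were higher, where 10.1% were. None of the 18 passed 1.5-fold, where 4.34% of genes of that level were lower and 2.73% higher, or 2-fold, where 0.804% and 1.29% were. Among the 18 members with a mean under 10 FPKM the SD was 0.54, against 0.38 over all genes of that level, and 11 had a higher value. Members between 10 and 50 FPKM (n = 16) and between 50 and 100 FPKM (n = 12) each had a median of -0.18, where all genes of those levels had medians of 0.02 and 0.01. Across the 64 members the size of the log2 fold change and the mean FPKM had a Spearman's rho of -0.46. Of the 6 members past 1.5-fold, 5 had a mean under 10 FPKM.

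Split by the repeated share of the coding sequence, the differences showed no steady order. Spearman's rho of the log2 fold change with this share was -0.12 over 63 members, and that of its size was 0.38. The 14 members in the filter with under 50% repeated 50-mers had a median of -0.02, with 0 lower and 1 higher by 1.2-fold, the paralog Rps4l. The 26 members between 50% and 90% had a median of -0.16, with 9 lower and 3 higher by 1.2-fold. The 23 members with at least 90% had a median of -0.12, with 5 lower and 4 higher. In the order given, 0%, 34.6% and 21.7% of the classes were lower by 1.2-fold, against 14.6% of all genes. Higher by 1.2-fold were 7.14%, 11.5% and 17.4%, against 17.2% of all genes. These classes were set after the levels had been seen, and the part of repeated sequence in the differences was not tested.

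**Figure D3:**
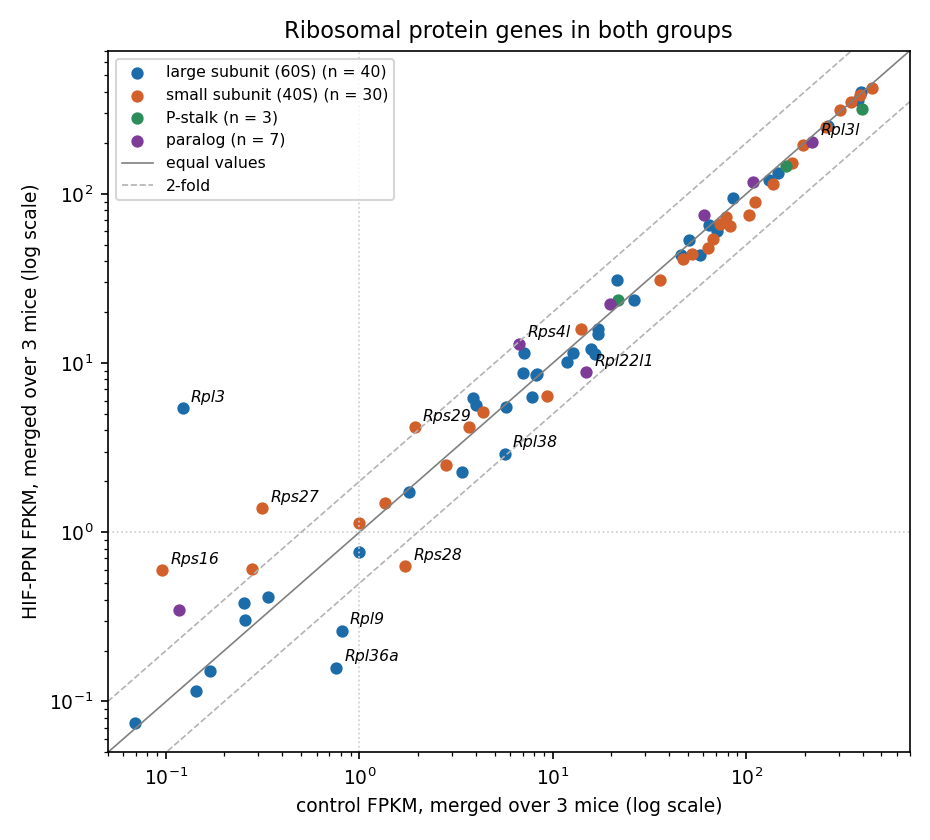
FPKM in HIF-PPN hearts against FPKM in control hearts for the 80 members above 0 in both groups, on log scales, 1 point per gene coloured by subunit, with lines of equality and of 2-fold difference and dotted lines at 1 FPKM. Points follow the line of equality at high levels, and Rpl3, at 0.122 and 5.39 FPKM, lies farthest from it.

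Of the small subunit, 25 of 31 members were in the filter, with a median log2 fold change of -0.14. A lower value was found in 19 of the 25 (76%, against 48.1% of all genes). By 1.2-fold 6 of the 25 were lower (24%, against 14.6% of all genes) and 1 was higher (4%, against 17.2%). Rps3, at the mRNA entry channel, was at 257 and 249 FPKM, and Rps15 was at 197 and 193 FPKM, with log2 fold changes of -0.05 and -0.03. The row of Rps15 covers 672 kb and shares that span with 49 other single-gene rows. Lower values by 1.2-fold were those of Rps15a (9.32 and 6.42 FPKM, -0.54), Rps2 (103 and 75.1 FPKM, -0.45), Rps26 (63.3 and 48.1 FPKM, -0.40), Rps18 (82.3 and 64.2 FPKM, -0.36), Rps3a1 (67.1 and 53.8 FPKM, -0.32) and Rps4x (111 and 89.9 FPKM, -0.30). Rps2 and Rps3 both belong to the mRNA entry channel, and Rps26 lies at the exit. Rps6, the substrate of the S6 kinases, was at 3.69 and 4.18 FPKM, and Rps27a, made as a fusion with ubiquitin, was at 1.36 and 1.49 FPKM. Rpsa, also known as the laminin receptor, was at 35.9 and 31.0 FPKM.

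Rps29, a small zinc-binding protein of the small subunit (chr12:69157722-69159186, GRCm38.p6), had the highest log2 fold change among the members in the filter. Its level was 1.93 and 4.20 FPKM, so that its log2 fold change was 1.12. Every 50-mer of its short coding sequence has a copy elsewhere. Rps10 was the only other small subunit member among the 10 highest apart from Rps6, at 4.34 and 5.17 FPKM (0.25).

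Some small subunit genes lay at the limit of the filter. Rps23, at the decoding centre, was at 0.994 and 1.13 FPKM and so fell just outside it, while Rps27a was just inside. Rps28 was at 1.72 and 0.632 FPKM, Rps27 at 0.314 and 1.39 FPKM, and Rps13 at 0.278 and 0.603 FPKM. All 50-mers of Rps23, Rps27 and Rps28 and 99.7% of those of Rps13 are repeated elsewhere.

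Of the large subunit, 30 of 43 members were in the filter, with a median log2 fold change of -0.09. A lower value was found in 19 of the 30 (63.3%, against 48.1% of all genes). Rpl38 (chr11:114667818-114672333), a small protein of the large subunit known in mice for its part in the translation of Hox mRNAs, was at 5.64 and 2.92 FPKM (-0.95), the lowest log2 fold change in the filter. Its row covers 413 kb against a gene of 4.52 kb, and 4 other single-gene rows share that span. Rpl31, at the rim of the exit tunnel, was at 3.39 and 2.28 FPKM (-0.57), in a row that covers 111 kb against a gene of 4.06 kb and shares its span with 1 other row. Rpl18 was at 16.5 and 11.4 FPKM (-0.54), Rpl39, a small protein of the exit tunnel, at 57.9 and 43.4 FPKM (-0.42) and Rpl6 at 7.85 and 6.33 FPKM (-0.31). These genes were 5 of the 6 large subunit members lower by 1.2-fold (20% of the 30, against 14.6% of all genes).

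Higher values by 1.2-fold were found for 5 of the 30 large subunit genes in the filter (16.7%, against 17.2% of all genes). Rpl36 was at 7.08 and 11.5 FPKM (0.70), Rpl35, near the exit of the tunnel, at 3.84 and 6.23 FPKM (0.70) and Rpl15 at 21.6 and 30.8 FPKM (0.51). Rpl37a was at 4.01 and 5.63 FPKM (0.49) and Rpl34 at 7.04 and 8.69 FPKM (0.30). Apart from Rpl15 these genes had means under 10 FPKM. Rpl5, which carries a small ribosomal RNA into the particle together with Rpl11, was at 1.81 and 1.73 FPKM, and Rpl37 was just outside the filter at 0.991 and 0.760 FPKM.

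All 3 stalk genes were in the filter. Rplp0, the base of the stalk, was at 161 and 146 FPKM (-0.14). Of its partners, Rplp1 was at 398 and 317 FPKM (-0.33) and Rplp2 at 21.8 and 23.7 FPKM (0.12), so the ribosomal P1 and P2 proteins, which form dimers on the stalk, had transcripts of unequal level in both groups and differences of opposite sign.

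Of the paralogs, 6 of 8 were in the filter, with a median log2 fold change of 0.14. By the log2 ratio of paralog to gene, the pair of Rpl3 and Rpl3l differed most between the groups, though by the paralog's share of the pair it differed less than those of Rps4l, Rpl22l1 and Rpl7l1. Rpl3l (chr17:24727826-24736143) was at 219 and 203 FPKM (-0.11), and Rpl3 (chr15:80077781-80083406) was at 0.122 and 5.39 FPKM. Rpl3l thus held 99.9% of the FPKM of the pair in control and 97.4% in HIF-PPN hearts, and the ratio of Rpl3l to Rpl3 was 1800 and 37.7. On the log2 scale the ratio in HIF-PPN less that in control was -5.58, but the size of this value rests on the control level of Rpl3, since with 5 FPKM added to each value it was -1.13. Of the coding 50-mers of Rpl3, 95.7% are repeated elsewhere, and none in the coding sequence of 723 bases used for Rpl3l, which is shorter than its longest one of 1224 bases. The first 60 bases of the longest coding sequence of both genes are shown with the bases that differ in capitals, to make plain that the pair can be told apart by sequence.
Rpl3: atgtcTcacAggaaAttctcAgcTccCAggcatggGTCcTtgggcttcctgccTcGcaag
Rpl3l: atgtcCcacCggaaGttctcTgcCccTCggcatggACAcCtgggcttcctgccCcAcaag
Of these 60 bases 13 differ. Over the whole aligned coding sequence the identity is 74.4%, and 0 coding 50-mers are shared between the genes of this pair or of any of the other 7 pairs.

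Rpl22l1 (chr3:28805508-28807424), the paralog of the RNA-binding protein gene Rpl22, was at 14.8 and 8.82 FPKM (-0.75), while Rpl22 was at 64.2 and 65.6 FPKM (0.03). The paralog's part of the pair was 18.8% in control and 11.8% in HIF-PPN hearts. Rps4l (chr6:148354656-148355596), an intronless paralog of the X-linked Rps4x, was at 6.71 and 13.0 FPKM (0.95), and its part of the pair was 5.70% and 12.6%. Its row covers 397 kb against a gene of 0.941 kb, a span shared with 4 other single-gene rows. Rpl7l1 was at 19.8 and 22.2 FPKM (0.16) beside Rpl7 at 70.3 and 60.7 FPKM (-0.21), a ratio of paralog to gene of 0.282 and 0.366.

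For 2 further pairs the paralog carried nearly all of the FPKM. Rps27l was at 108 and 118 FPKM (0.12) beside Rps27 at 0.314 and 1.39 FPKM, and Rpl36al at 60.1 and 74.6 FPKM (0.31) beside Rpl36a at 0.756 and 0.158 FPKM. In these pairs every 50-mer of the standard gene is repeated elsewhere, against 49.0% for Rps27l and 81.6% for Rpl36al. Rpl39l, at 0.117 and 0.348 FPKM, stood far below Rpl39 and held 0.201% and 0.796% of the pair. Rpl10l, known in mice for its part in male meiosis, was listed at 0.

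**Figure D4:**
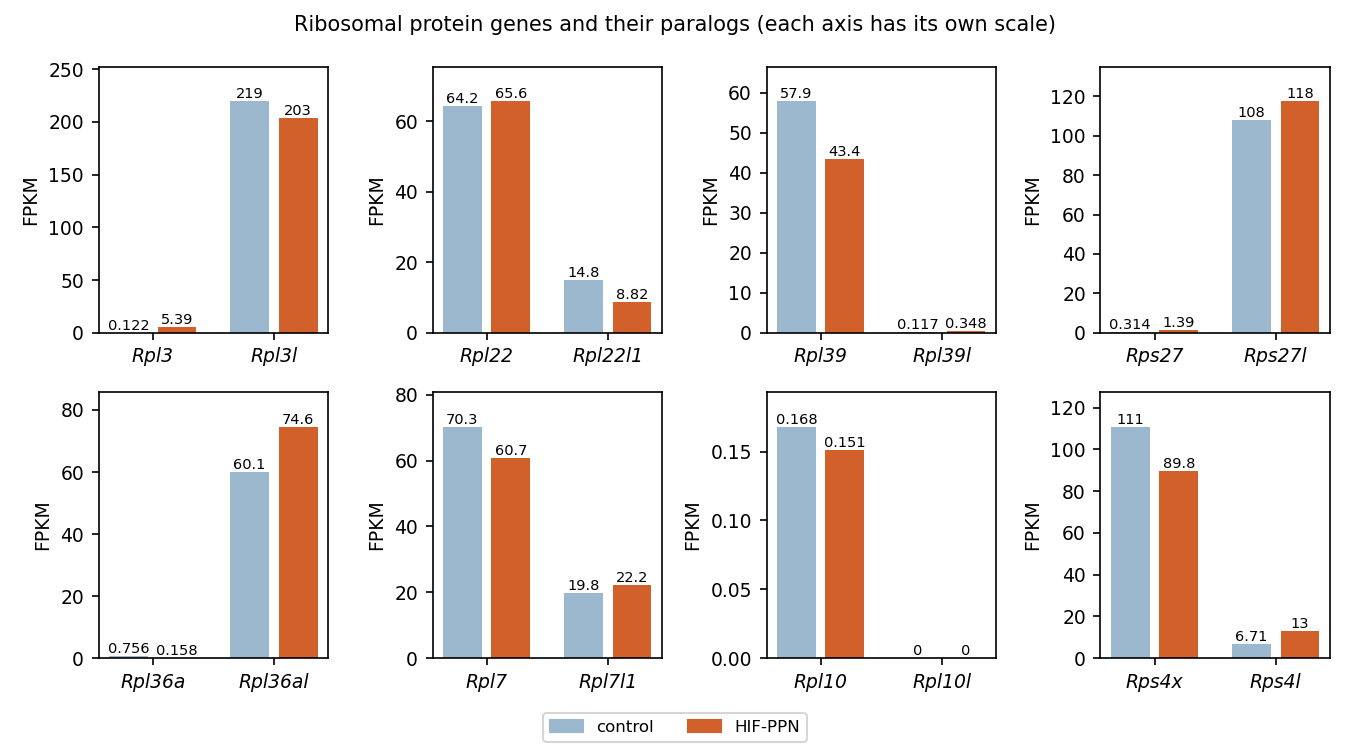
FPKM in control (blue) and HIF-PPN (orange) hearts for 8 ribosomal protein genes and their paralogs, 1 panel per pair and 1 bar per merged group value, each panel with its own axis from 0. Rpl3l, Rps27l and Rpl36al stand far above Rpl3, Rps27 and Rpl36a in both groups, and Rpl22l1 is at 14.8 and 8.82 FPKM.

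Sequence around the annotated transcription start was available from RefSeq (GRCm38.p6) for 64 of the 85 members, of which 46 were in the filter. A C followed by at least 4 pyrimidines began at the annotated start base in 12 of 64 members (18.8%). This was so for 2.31% of the 8705 genes in the filter with such sequence and 2.48% of all 27025 promoters. The 64 members were not limited to those in the filter. Within 10 bases of the start it was found in 57.8% of members, against 32.3% and 30.8%. The windows of 30 bases before the start and 20 bases from it are shown for the members in the filter with this start that stood highest (2 genes) and lowest (2 genes) by log2 fold change, and for Rps21 as an abundant gene, with the pyrimidine run in capitals.
Rps21, chr2:180257349-180257398, plus strand: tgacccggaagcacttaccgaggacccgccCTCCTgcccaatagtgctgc
Rpl15, chr14:18270967-18271016, minus strand: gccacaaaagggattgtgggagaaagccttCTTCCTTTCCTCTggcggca
Rpl35, chr2:39005112-39005161, minus strand: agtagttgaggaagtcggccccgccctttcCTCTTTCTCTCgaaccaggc
Rpl38, chr11:114668550-114668599, plus strand: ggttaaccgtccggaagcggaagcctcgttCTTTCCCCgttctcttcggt
Rps15a, chr7:118116128-118116177, minus strand: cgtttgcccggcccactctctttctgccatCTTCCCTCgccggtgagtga
The 10 members in the filter with the run at the start base had a median log2 fold change of 0.05, with 5 higher and 5 lower. The other 36 had a median of -0.13, with 26 lower (72.2%, against 48.1% of all genes). These 36 include members with a run close to the annotated start, such as Rpl7a (1 base before it) and Rpl18 (1 base after it). The split therefore follows the annotated start base and does not part TOP mRNAs from others.

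The core of the HIF binding motif was searched on both strands as ACGTG and as GCGTG in the window from 250 bases before to 50 bases after the start. ACGTG was found in 28.1% of the 64 members, 26.3% of the 8705 genes in the filter with such sequence and 19.6% of all promoters. GCGTG was found in 56.2%, 52.7% and 32.5%, in the same order. CACGTG, the E-box bound by MYC, which contains ACGTG, was found in 7.81%, 10.5% and 7.24%. CCGGAA, the core of the ETS motif, was found in 50% of members against 28.9% of those genes, and AANATGGC, the YY1 motif, in 20.3% against 8.99%. TATAAA was found in 10.9%, 6.94% and 14.2%. These are matches of letters and no measure of binding.

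Genes that act with the ribosomal proteins were compared with them from lists. Of the ribosomal proteins with other symbols, Fau was at 1.83 and 1.38 FPKM and Gnb2l1, the gene of RACK1, was at 352 and 354 FPKM. Mitochondrial ribosomal proteins, which are encoded in the nucleus and build the separate ribosome of mitochondria, had a median log2 fold change of -0.10 over 73 genes. A lower value was found in 48 of them (65.8%, against 48.1% of all genes). By 1.2-fold 13 were lower (17.8%, against 14.6% of all genes) and 7 higher (9.59%, against 17.2%). Mrps2 was lowest (23.8 and 17.3 FPKM, -0.46) and Mrpl52 highest (67.7 and 89.2 FPKM, 0.40). The cytosolic and mitochondrial ribosomal proteins had about the same median.

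Ribosome assembly genes had the opposite lean. Over the 106 genes of 4 biogenesis lists the median log2 fold change was 0.17, beside 0.01 for all genes, with 83 higher and 23 lower values, where 51.9% of all genes were higher. By 1.2-fold 35 of the 106 were higher and 1 lower, where 17.2% and 14.6% of all genes were. The 48 large subunit assembly factors had a median of 0.24, with 40 higher, 22 of them by 1.2-fold, and 0 lower by 1.2-fold. The highest were Rrp15 (4.71 and 7.20 FPKM, 0.61), Mak16 (7.01 and 9.77 FPKM, 0.48) and Bop1 (9.42 and 13.0 FPKM, 0.47), all acting on the precursor of the large subunit. Of the 35 genes of the small subunit processome, 29 were higher and the median was 0.10, with Rrp12 highest (4.29 and 7.11 FPKM, 0.73). Of the 9 proteins of the snoRNPs, which modify ribosomal RNA, 8 were higher and the median was 0.23, with Gar1 (6.65 and 9.62 FPKM, 0.53) and Nop56 (7.93 and 11.0 FPKM, 0.47) highest. RNA polymerase I and its factors (n = 14) had a median of -0.03 and a lower value in 8. Polr1e was lowest (6.03 and 4.14 FPKM, -0.54) and Cd3eap highest (4.26 and 5.84 FPKM, 0.45).

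Translation factors and related genes known for TOP mRNAs (n = 17) had a median of 0.03, with Tpt1 (39.0 and 30.6 FPKM, -0.35) and Naca (93.0 and 74.0 FPKM, -0.33) lowest and Hnrnpa1 (14.5 and 21.0 FPKM, 0.54) highest. The other initiation and elongation factors (n = 38) had a median of 0.09 and 29 higher values, with Eef1a2, the elongation factor of muscle and neurons, highest (552 and 712 FPKM, 0.37). Regulators of mTORC1 and TOP mRNAs (n = 22) had a median of -0.04, with 6 lower and 2 higher by 1.2-fold. Those were 27.3% and 9.09% of the list, against 14.6% and 17.2% of all genes. In the filter Sesn1 (82.4 and 60.2 FPKM, -0.45) and Ddit4 (31.2 and 23.2 FPKM, -0.43) were lowest and Sesn2 (1.36 and 1.88 FPKM, 0.47) was highest, all known as inhibitors of mTORC1. Ddit4l, of the same family as Ddit4 and outside the filter, was at 2.83 and 0.872 FPKM (-1.70) and was named after its values were seen. Factors known for the transcription of ribosomal protein genes and the MYC network (n = 11) had a median of 0.06, with Mycn (1.90 and 2.63 FPKM, 0.47) and Max (23.6 and 31.9 FPKM, 0.43) highest and Myc itself at 0.870 and 1.48 FPKM, outside the filter. Genes of the p53 axis that answers free ribosomal proteins (n = 7) had a median of 0.11, and those of ribosome quality control and hibernation (n = 13) a median of 0.18.

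**Figure D5:**
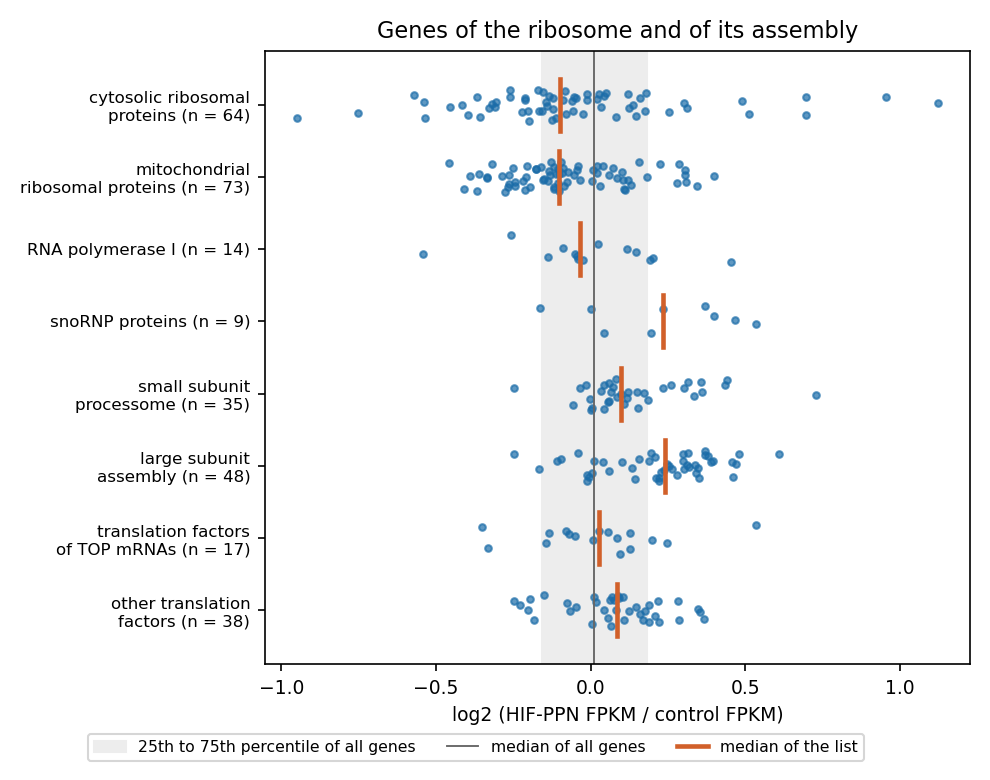
Log2 fold change (HIF-PPN FPKM over control FPKM) of single genes in the filter, 1 row per list, with the median of each list as an orange bar, the median of all genes as a line and their 25th to 75th percentile shaded. The cytosolic and mitochondrial ribosomal proteins have medians of -0.10, and large subunit assembly factors have a median of 0.24.

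Markers of cell types were read as a check of the labelled tissue. The 8 cardiomyocyte markers summed to 31732 and 29142 FPKM with a median log2 fold change of -0.12, and no lymphocyte or skeletal muscle marker reached 1 FPKM in both groups. The 4 adipocyte markers in the filter, of 6 listed, were all higher in HIF-PPN hearts, and the 6 summed to 10.2 and 50.9 FPKM. Although the label is ventricle, the 4 atrial markers were present in both groups, from Myl4 at 299 and 235 FPKM to Nppa at 1235 and 875 FPKM. Whether atrial tissue was included was not tested. All 4 atrial markers were lower in HIF-PPN hearts, and they summed to 2591 and 1876 FPKM. The 6 macrophage and neutrophil markers were all lower as well, summing to 198 and 171 FPKM, and of the 4 smooth muscle markers 2 were lower and 2 higher, with sums of 409.8 and 305.0 FPKM. The part of these cell types in the ribosomal protein values was not tested. The row of Hif1a was at 35.3 and 25.9 FPKM, and whether reads of the transgene were counted in it is not given in the sources used here.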

How the data were processed

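RNA of the ventricles of 3 control and 3 HIF-PPN mice was sequenced as paired-end reads from poly A RNA. Reads were trimmed by the authors and aligned by TopHat, which uses Bowtie, first to an older NCBI build and later to mm10, and Cufflinks with Cuffdiff gave the gene values. The deposited FPKM values are normalised by the authors for length and mapped fragments and hold 1 merged value per group. A deposited log2 fold change column holds the authors' own comparison and was not used. Read length is not given in the sources used here, and low values show no steps of whole reads, so the depth is unknown. Of the 23792 rows, 202 name several genes and none of these holds a member. One line of the table had been left blank and is not analysed here.

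The log2 fold change was the log2 of the HIF-PPN FPKM over the control FPKM, with no pseudocount, for single-gene rows with at least 1 FPKM in both groups. Folds of 1.2, 1.5 and 2 were counted, and the counting was tested on simulated data. Repeated coding sequence was the share of a gene's 50-mers (coding sequence of the lowest-numbered transcript, GENCODE on NCBIM37) with an exact copy outside the gene. Positions and starts come from RefSeq on GRCm38.p6. The repeated shares from NCBIM37 were joined by gene name to the FPKM values of the authors. Spans of the deposited rows were set beside gene spans of GRCm38.p6. Members and lists were chosen with earlier results of these data known. Values were to be given for the 10 highest and 10 lowest members, the 8 most abundant, paralog pairs, members near 1 FPKM or past 1.5-fold, and, of other lists, the 3 highest, 3 lowest and 2 most abundant genes. A few genes are counted in the totals and not reported here by name. Other members, Gapdh, Ppia and Hif1a were named after their values were seen. Alternatives were other filters, pseudocounts, scalings and gene sets. Tools were pandas 2.3.3, numpy 2.4.6, scipy 1.17.1 and numba 0.67.0 under python 3.11.15, with matplotlib 3.10.9 for plots.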

Additional observations from a re-analysis of the deposited data

How the results depend on the processing

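Values are merged over 3 mice per group, so no replicate could be left out. No paired analysis was possible because the values of single mice are merged in the deposited table. Adding rows with several genes changed nothing, since none holds a member, and the mitochondrially encoded genes have no rows that could be left out of the sum. The median log2 fold change of the members stayed below 0 under 12 of 12 alternatives, between -0.12 and -0.02. Those with pseudocounts or with centring on the median of all genes could not have turned its sign. The value nearest 0 was that of the 14 members with under 50% repeated 50-mers, a set chosen after seeing the data, of which 9 had a lower value, 0 were lower and 1 was higher by 1.2-fold. With at least 10 FPKM required in both groups, 9 of 45 members were lower and 2 higher by 1.2-fold. With no filter but a value above 0 in both, 19 of 80 were lower and 15 higher by 1.2-fold. Among the 40 members alone in their row span, also chosen after seeing the data, 25 had a lower value, and 8 were lower and 6 higher by 1.2-fold. The shares of all genes were not counted under these changed filters and sets, so these counts have no background beside them. At 1.5-fold 2 members were lower and 4 higher, and at 2-fold 0 and 1. The log2 ratio of Rpl3l to Rpl3 changed by -5.58 from control to HIF-PPN hearts, and by -4.74, -2.62 and -1.13 with 0.1, 1 and 5 FPKM added.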

Other observations

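Some rows outside the family hold related sequence, all named after their values were seen. Rpl14-ps1, named as a pseudogene, was at 219 and 220 FPKM in control and HIF-PPN hearts, above Rpl14 itself at 45.9 and 43.4 FPKM. Its row covers 30.6 kb, and which sequence within it gave the value is not known. Other pseudogene rows were low, with Rps15a-ps4 at 3.51 and 2.17 FPKM, Rps15a-ps6 at 3.72 and 4.30 FPKM and Rps19-ps3 at 1.81 and 1.78 FPKM. Rpl31-ps12 was listed at 0. The rows of Rps15a-ps6 and Rpl31-ps12 cover 94.8 and 76.3 kb. The row of the ribosomal RNA precursor, Rn45s, was at 2052 and 4210 FPKM (log2 fold change 1.04) in these poly A libraries. Members were spread over 19 chromosomes, with 14 on chromosome 7 and 8 on chromosome 17. The neighbours Rps2 and Rpl3l lie 5.90 kb apart, with log2 fold changes of -0.45 and -0.11.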
